A study of Drosophila melanogaster with 12 samples.

Results

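Peptidoglycan recognition proteins (PGRPs) are the proteins with which flies sense and digest bacterial cell wall. Some bind peptidoglycan and start the Toll or the Imd signalling pathway, whose NF-kappaB factors switch on antimicrobial peptide genes, mainly in the fat body, blood cells and gut. Others are amidases, enzymes that cut peptidoglycan, and several of these dampen the immune response. The 10 genes described here are PGRP-SA, PGRP-SB1, PGRP-SC1a, PGRP-SC1b, PGRP-SC2, PGRP-SD, PGRP-LB, PGRP-LC, PGRP-LE and PGRP-LF. They were chosen by symbol, out of 15423 genes in the deposited count table, and each passed the filter on low counts, 7 of them in all 12 libraries. PGRP-SC1a and PGRP-SC1b passed it through the hypomorph libraries alone and PGRP-SC2 through 5 libraries at 29°C, so their calls between those libraries and the rest are no support for the counts below.

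Their mRNA was measured by 3' RNA-seq, which reads fragments next to the poly(A) tail, in heads of WT flies and of ADAR hypomorph flies grown at 18°C or at 29°C, with 3 libraries in each of the 4 groups. ADAR is the enzyme that converts adenosine to inosine in RNA, and a hypomorph has an allele of reduced function. No infection or immune challenge is named for any group. The flies were 3 to 6 days old. Their sex and the number of flies per library are not given in the sources used here. The study describes the hypomorph as carrying a transposon in an intron of Adar, while its methods give another allele name, and the genetic background of the WT strain is not given. An effect of the Adar allele and of other differences between the strains cannot be told apart. The sources do not say whether libraries of a group came from separate cultures, so the p-values measure only the spread between these libraries, which may be technical.

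Total counts per library ranged from 4409119 to 8806472. Levels are in CPM (read counts relative to library size) after TMM normalization, and 3 counts correspond to 0.349 to 0.658 CPM. Adar stood at 40.2, 40.9 and 35.2 CPM in WT flies and at 37.7, 22.5 and 28.0 CPM in hypomorph flies at 18°C, where 1 hypomorph library lay within the WT range. At 29°C the Adar levels were 37.3, 39.5 and 42.3 CPM in WT flies against 24.6, 23.5 and 21.7 CPM in hypomorph flies, with no overlap. The defining markers of neurons, photoreceptors and glia were detected in every group, and summed salivary gland markers reached at most 1.10 CPM. The 5 photoreceptor markers summed to 5945 to 6596 CPM in WT and 22410 to 22860 CPM in hypomorph flies at 18°C. At 29°C the sums were 9982 to 10930 CPM against 30640 to 32730 CPM. Markers of tissues known for PGRP expression also differed between the groups. The 9 fat body markers summed to 100400 to 109000 CPM in WT and 22360 to 33910 CPM in hypomorph flies at 18°C, and to 82080 to 85940 CPM against 46570 to 53730 CPM at 29°C. Most of these sums came from the yolk protein genes Yp1, Yp2 and Yp3, with means of 32920, 39560 and 28370 CPM in WT flies at 18°C. Taken singly, 8 of the 9 markers fell in the hypomorph at 18°C. Among them Rfabg had means of 2992 CPM in WT and 1547 CPM in hypomorph flies. The marker not called, to, had 248.8 and 296.9 CPM. The 7 hemocyte (blood cell) markers summed to 230.2 to 235.9 CPM against 149.4 to 165.1 CPM at 18°C, and to 284.7 to 300.0 CPM against 153.3 to 173.9 CPM at 29°C. The 14 gut markers, of which 1 was at 0 in each group at 18°C, summed to 1802 CPM in replicate 2 of the WT flies at 29°C and to 859.6 CPM in replicate 2 of the hypomorph flies at 29°C, against 4.85 to 74.5 CPM in the other 10 libraries. In bulk tissue, fewer cells of a type and less RNA per cell cannot be told apart.

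Several of the PGRP genes were lower in ADAR hypomorph heads at 29°C. There, 6 of the 10 genes fell (PGRP-SA, PGRP-SB1, PGRP-SD, PGRP-LB, PGRP-LC and PGRP-LF), PGRP-SC1a and PGRP-SC1b rose from near 0, and PGRP-LE and PGRP-SC2 did not pass the test. The call of PGRP-LC was lost in 10 of 21 alternatives, and 5 genes fell without it. With PGRP-LC, 8 genes were called at an adjusted p under 0.05 by edgeR's quasi-likelihood test, where 19.0% of all 9553 tested genes were called, 10.2% lower and 8.81% higher. The libraries of the strains did not overlap for the same 8 genes, against 35.9% of all tested genes. At 18°C, 4 of the 10 genes were called, against 26.2% of all genes: PGRP-SA and PGRP-LB fell (14.6% of all genes did), and PGRP-SC1a and PGRP-SC1b rose (11.6%). There 7 genes had libraries that did not overlap between the strains (38.3% of all genes). The counts of 8, 4 and 7 genes include PGRP-SC1a and PGRP-SC1b, near-identical copies that passed the filter through the hypomorph libraries alone. Besides this pair, only PGRP-SA and PGRP-LB were called at 18°C. The median log2 fold change of the 10 genes, hypomorph over WT, was -0.85 at 29°C and -0.06 at 18°C, against -0.0029 and 0.01 over all tested genes. These medians do not depend on how far PGRP-SC1a and PGRP-SC1b rose, but they count both genes. Among the other genes at 18°C, PGRP-SA, PGRP-SB1, PGRP-LB, PGRP-LC and PGRP-LF were below 0, and PGRP-SC2, PGRP-SD and PGRP-LE above. Counting the pair moved the median at 18°C towards 0.

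Between temperatures, PGRP-SA and PGRP-SD were higher at 18°C than at 29°C in both strains. Fat body markers were higher at 18°C in WT flies (8 of 9 called) while 5 of 9 were lower and 1 higher in hypomorph flies. In WT flies 4 of the 10 genes were called, a share near the 33.4% of all genes. PGRP-SA, PGRP-SD and PGRP-LB were higher at 18°C (17.3% of all genes were) and PGRP-SC2 was lower (16.1%). PGRP-SC2 passed the filter only through libraries at 29°C, so its call is no support. In hypomorph flies 6 were called, against 32.2% of all genes. PGRP-SA, PGRP-SB1, PGRP-SD and PGRP-LF were higher at 18°C (16.6% of all genes), and PGRP-SC1a and PGRP-SC1b were lower (15.6%). The groups did not overlap for 5 genes in WT flies (44.9% of all genes) and for the 6 called genes in hypomorph flies (45.3%). These 6 genes include the near-identical copies PGRP-SC1a and PGRP-SC1b, and the 5 genes include PGRP-SC2. The difference of the temperature responses between the strains was called for PGRP-SD alone, where 2.32% of all genes were called, 0.639% with a larger and 1.69% with a smaller value in the hypomorph. The study counts genes with a log2 fold change over 1 and a p under 0.05. By that rule, taken with the unadjusted p of edgeR, 1 of the 10 genes was called in WT flies between temperatures (7.33% of all genes) and 2 in hypomorph flies (6.16%). The WT gene was PGRP-SC2, and the hypomorph genes were PGRP-SC2 and PGRP-SD. The calls of PGRP-SC2 are again no support, since it passed the filter only through libraries at 29°C. Between strains it called 3 genes at 18°C (5.51%) and 3 at 29°C (4.72%), with PGRP-SC1a and PGRP-SC1b among them at each temperature. It called 1 difference between the strains in their temperature response, that of PGRP-SB1 (2.52%).

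**Figure D1:**
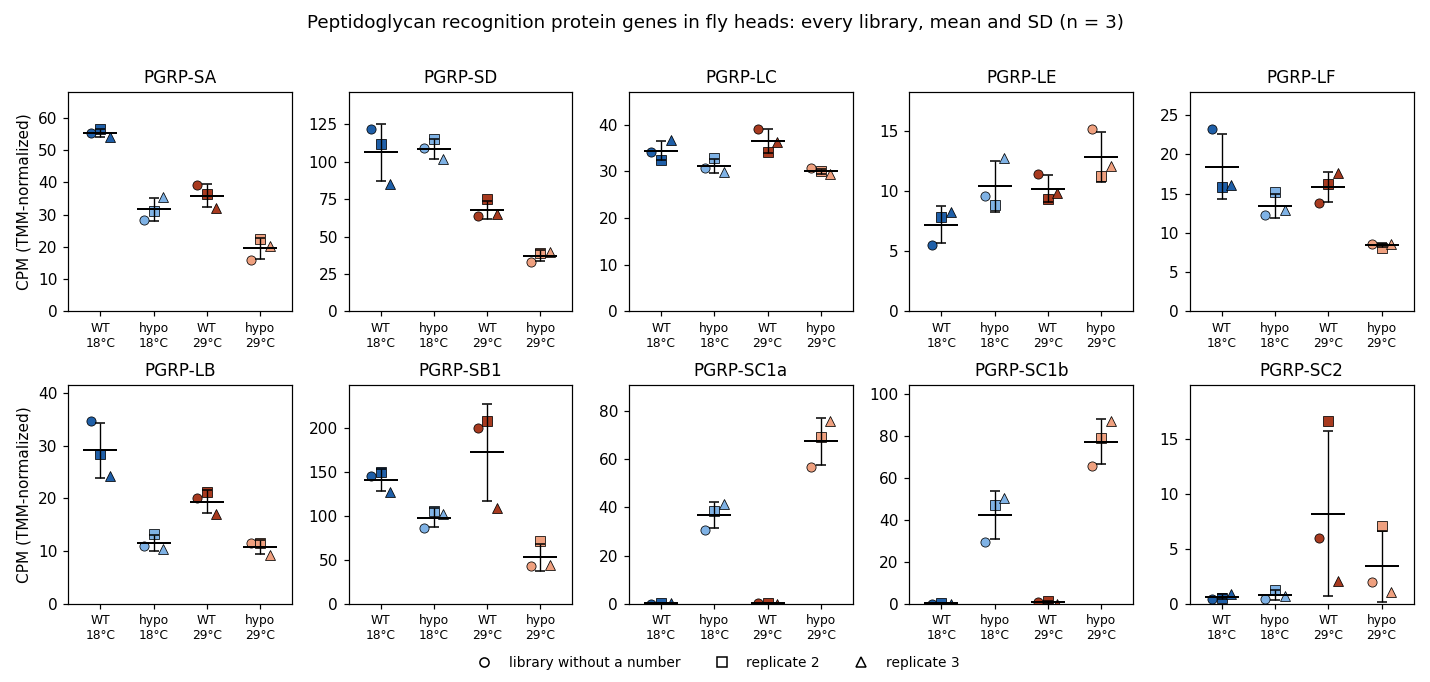
Level of each of the 10 PGRP genes (vertical axis, CPM, linear from 0 with its own range per gene) in the 12 libraries, by strain and temperature. Points are libraries, and horizontal lines with error bars are group means ± SD (n = 3). PGRP-SC1a and PGRP-SC1b are near 0 in WT libraries and at 29.3 to 87.0 CPM in hypomorph libraries, and PGRP-SA, PGRP-SB1, PGRP-SD, PGRP-LB and PGRP-LF are lower in hypomorph than in WT libraries at 29°C without overlap.

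PGRP-SA, on chromosome X, encodes a circulating protein that recognises peptidoglycan of many Gram-positive bacteria and, with the protein GNBP1, triggers the protease cascade upstream of Toll. Its levels were 55.3, 56.6 and 54.2 CPM in WT flies at 18°C and 28.3, 31.2 and 35.4 CPM in hypomorph flies at 18°C. At 29°C they were 39.1, 36.4 and 32.0 CPM in WT and 15.9, 22.6 and 20.1 CPM in hypomorph flies. Each group of 3 stood apart from its partner in all 4 pairwise comparisons, with WT flies at 18°C highest and hypomorph flies at 29°C lowest. In the hypomorph PGRP-SA fell by 0.80 on the log2 scale at 18°C (SE 0.12, edgeR adjusted p = 0.000107) and fell by 0.87 at 29°C (SE 0.12, adjusted p = 8.37e-05). It was higher at 18°C than at 29°C by 0.63 in WT (SE 0.12, adjusted p = 0.000668) and by 0.70 in hypomorph flies (SE 0.12, adjusted p = 0.000436). The temperature responses of the strains differed by 0.07, with a 95% interval from -0.29 to 0.43 (adjusted p = 0.899).

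PGRP-SD, on chromosome 3L, encodes a secreted protein that binds peptidoglycan and has been linked to both Toll and Imd signalling. At 18°C it stood at 122, 111.7 and 85.3 CPM in WT flies and at 108.9, 115.2 and 101.6 CPM in hypomorph flies, and the strains overlapped. At 29°C it stood at 63.7, 74.8 and 65.1 CPM in WT flies and at 32.9, 39.1 and 39.4 CPM in hypomorph flies, where every hypomorph library was below every WT library. The strains differed by 0.03 on the log2 scale at 18°C (95% interval -0.21 to 0.28, adjusted p = 0.867), and at 29°C PGRP-SD fell by 0.87 in the hypomorph (SE 0.12, adjusted p = 6.91e-05). Flies at 18°C had more PGRP-SD than flies at 29°C in WT (log2 fold change 0.64, SE 0.12, adjusted p = 0.000534) and in the hypomorph (1.55, SE 0.12, adjusted p = 1.59e-07). The response of the hypomorph was larger than that of WT by 0.90 (SE 0.17, edgeR adjusted p = 0.00713). Within the 8 numbered libraries the same difference was 0.97, with an adjusted p of 0.058, and leaving out any single library kept the call.

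PGRP-LC and PGRP-LE encode the receptors of the Imd pathway for the DAP-type peptidoglycan of most Gram-negative bacteria. PGRP-LC spans the cell membrane, and PGRP-LE can act inside the cell. PGRP-LC, on chromosome 3L, had levels of 34.2, 32.5 and 36.7 CPM in WT and 30.7, 32.8 and 29.9 CPM in hypomorph flies at 18°C. At 29°C its levels were 39.1, 34.2 and 36.2 CPM in WT and 30.6, 29.99 and 29.4 CPM in hypomorph flies. The strains overlapped at 18°C and stood apart at 29°C, where PGRP-LC fell by 0.28 on the log2 scale (SE 0.084, adjusted p = 0.0271). This call was lost in 10 of 21 alternatives, among them DESeq2 (adjusted p = 0.0779). It was also lost without any one of the unnumbered libraries (adjusted p = 0.122 without the WT one and 0.0548 without the hypomorph one), the libraries numbered 3 (0.0633 and 0.0832) or hypomorph replicate 2 (0.0681) at 29°C. The temperature changes of PGRP-LC were -0.08 in WT (adjusted p = 0.517) and 0.05 in the hypomorph (adjusted p = 0.676).

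PGRP-LE, on chromosome X, had a higher mean in the hypomorph than in WT at each temperature, but passed the test in no comparison. Its levels were 5.49, 7.85 and 8.30 CPM in WT and 9.57, 8.83 and 12.8 CPM in hypomorph flies at 18°C, a log2 difference of 0.51 (adjusted p = 0.0734) between groups that did not overlap. At 29°C they were 11.4, 9.33 and 9.87 CPM in WT and 15.2, 11.3 and 12.1 CPM in hypomorph flies, a log2 difference of 0.33 between groups that overlapped (adjusted p = 0.251). The value at 18°C was -0.48 relative to 29°C in WT flies (adjusted p = 0.0814, no overlap) and -0.30 in hypomorph flies (adjusted p = 0.239). Without hypomorph replicate 2 at 18°C the strain difference at 18°C was 0.63 (adjusted p = 0.0499), and without hypomorph replicate 3 it was 0.33 (adjusted p = 0.307).

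PGRP-LF encodes a membrane protein that restrains signalling by PGRP-LC. In the Release 6 annotation, which was used here only for gene order, PGRP-LA, PGRP-LC and PGRP-LF are neighbours on the same strand of chromosome 3L. PGRP-LF stood at 23.3, 15.9 and 16.2 CPM in WT and 12.3, 15.2 and 12.9 CPM in hypomorph flies at 18°C, with the groups apart by less than 1 CPM. At 29°C it stood at 13.8, 16.2 and 17.6 CPM in WT and 8.60, 8.14 and 8.61 CPM in hypomorph flies, so the hypomorph libraries were close to each other and all below WT. PGRP-LF fell by 0.91 on the log2 scale in the hypomorph at 29°C (SE 0.16, adjusted p = 0.000802). The strain difference at 18°C was -0.43 (SE 0.16, adjusted p = 0.0575), and -0.53 without WT replicate 2, WT replicate 3 or hypomorph replicate 2 at 18°C, each of which brought it past the threshold (adjusted p = 0.0426, 0.0453 and 0.0465). Without the unnumbered WT library at 18°C, the highest of its group, it was -0.25 (adjusted p = 0.262), and in the 8 numbered libraries it was -0.19 (0.448, and 0.467 with the replicate block). Hypomorph flies had more PGRP-LF at 18°C than at 29°C (log2 fold change 0.68, SE 0.17, adjusted p = 0.00553), while the WT value was 0.20 (adjusted p = 0.358). The difference of these responses, 0.48, did not pass the test (adjusted p = 0.367). The neighbour PGRP-LA, whose product acts in Imd signalling of barrier epithelia, was at 33.5 to 46.6 CPM over all 12 libraries, and its strain differences were 0.21 at 18°C (adjusted p = 0.123) and 0.25 at 29°C (adjusted p = 0.0824).

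PGRP-LB, on chromosome 3R, encodes an amidase that degrades DAP-type peptidoglycan, and is itself a target of the Imd pathway that it restrains. Its levels at 18°C were 34.7, 28.5 and 24.3 CPM in WT and 10.9, 13.3 and 10.4 CPM in hypomorph flies. At 29°C they were 20.0, 21.1 and 17.1 CPM in WT and 11.6, 11.6 and 9.30 CPM in hypomorph flies. All hypomorph libraries lay below all WT libraries at each temperature, and the hypomorph groups at the different temperatures overlapped. PGRP-LB fell by 1.32 on the log2 scale in the hypomorph at 18°C (SE 0.16, adjusted p = 1.28e-05) and fell by 0.84 at 29°C (SE 0.16, adjusted p = 0.00107). WT flies had more of it at 18°C (log2 fold change 0.58, SE 0.15, adjusted p = 0.00681), and the hypomorph value was 0.10, with a 95% interval from -0.25 to 0.44 (adjusted p = 0.692). The difference of responses, -0.48, had an adjusted p of 0.342.

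PGRP-SB1 encodes a secreted amidase with activity against bacteria and lies on chromosome 3L. Its levels were 145, 149.9 and 127 CPM in WT and 85.9, 105.9 and 102 CPM in hypomorph flies at 18°C. At 29°C it stood at 200.3, 207.6 and 108.7 CPM in WT and 43.3, 70.9 and 44.4 CPM in hypomorph flies. The strains did not overlap at either temperature, and WT replicate 3 at 29°C, the lowest of its group, was below all 3 WT libraries at 18°C. In the hypomorph at 29°C PGRP-SB1 fell by 1.70 on the log2 scale (SE 0.21, adjusted p = 3.08e-05). At 18°C the value was -0.52 (SE 0.21, adjusted p = 0.0825), which passed the test without WT replicate 3 at 29°C (adjusted p = 0.0212) or hypomorph replicate 2 at 29°C (0.0448).

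Hypomorph flies had more PGRP-SB1 at 18°C than at 29°C, with a log2 fold change of 0.89 (SE 0.21, adjusted p = 0.00486), and the WT value was -0.29 (SE 0.21, adjusted p = 0.307). Without WT replicate 3 at 29°C the WT value was -0.54 and passed the test (adjusted p = 0.0256), but without WT replicate 2 at 29°C it was -0.13 (adjusted p = 0.698) and without the unnumbered WT library at 29°C it was -0.17 (0.635). The difference of the responses, 1.18 (SE 0.30), was just outside the threshold (adjusted p = 0.0516). It passed without WT replicate 3 at 29°C (1.42, adjusted p = 0.00507) and without hypomorph replicate 2 at 29°C (1.45, adjusted p = 0.00991), and over all leave-one-out and other alternatives it ranged from 1.02 to 1.45.

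**Figure D2:**
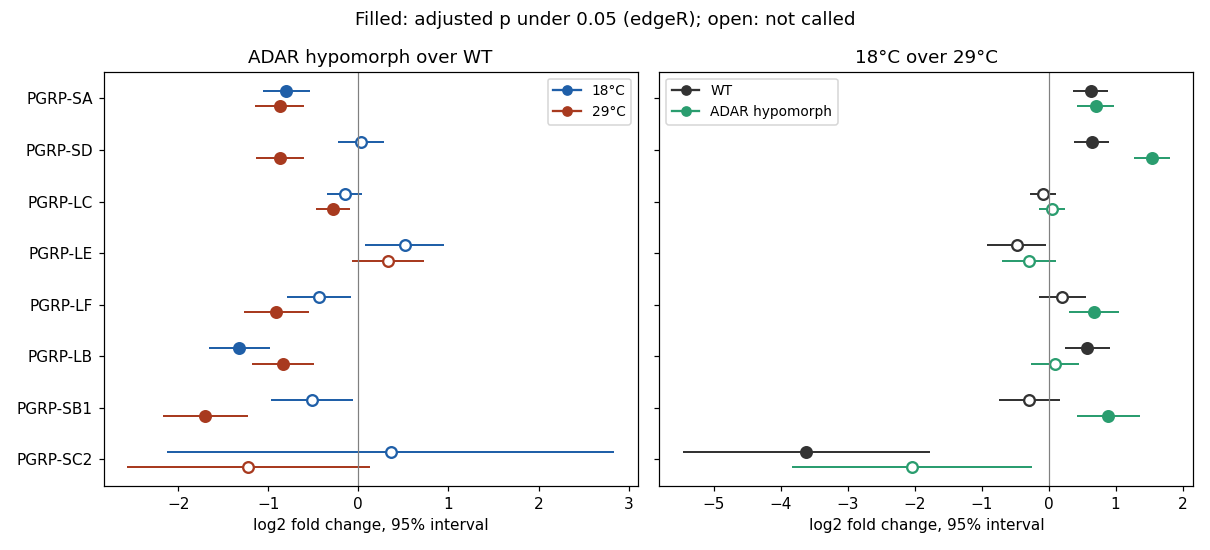
Log2 fold change, with its 95% interval, of 8 PGRP genes in each pairwise comparison. A positive value is higher in the hypomorph (left) or at 18°C (right), and PGRP-SC1a and PGRP-SC1b are left out because their WT levels are near 0. Filled and open symbols separate adjusted p under and over 0.05. PGRP-SC2 passed the filter only through libraries at 29°C, so its temperature symbols are a description. At 29°C the strain values run from -0.28 for PGRP-LC to -1.70 for PGRP-SB1 among the 6 genes that fell (the call of PGRP-LC was lost in 10 of 21 alternatives), and PGRP-SC2 has the widest intervals.

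PGRP-SC1a, PGRP-SC1b and PGRP-SC2 form a cluster on chromosome 2R and encode amidases best known from the gut, where they remove peptidoglycan and damp the Imd response. PGRP-SC1a and PGRP-SC1b are near-identical copies, so the split of reads between them is uncertain. In WT flies PGRP-SC1a had 0, 2 and 1 counts at 18°C and 1, 2 and 0 counts at 29°C. In hypomorph flies it had 157, 308 and 336 counts at 18°C and 424, 597 and 546 counts at 29°C. PGRP-SC1b had 0, 3 and 0 counts at 18°C and 4, 8 and 1 counts at 29°C in WT flies, and 150, 380 and 411 counts at 18°C and 490, 681 and 627 counts at 29°C in hypomorph flies. Every one of the 6 hypomorph libraries held at least 150 counts of each gene and no WT library held more than 8.

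Scaled to library size, the summed counts of PGRP-SC1a were 212 times higher in the hypomorph at 18°C (95% exact counting interval 72.2 to 1030) and 494 times higher at 29°C (169 to 2397). For PGRP-SC1b the ratios were 249 (84.9 to 1209) at 18°C and 131 (76.3 to 246) at 29°C. These intervals cover counting error only, since reads copied by PCR do not count separate molecules. The ratios rest on 3, 3, 3 and 13 WT counts, and fitted values moved with single WT libraries: for PGRP-SC1b at 18°C the log2 fold change was 7.77, and 11.24 without WT replicate 2, which held all 3 counts. Without a single WT library it ranged from 7.15 to 8.46 for PGRP-SC1a at 18°C, from 8.15 to 9.61 for PGRP-SC1a at 29°C, and from 6.43 to 7.75 for PGRP-SC1b at 29°C. Both genes passed the filter on low counts (1.36 CPM in at least 3 libraries) through the hypomorph groups alone, so their strain calls are given as a description and no p-value is printed for them. The 2 genes counted as 1 gave log2 fold changes of 7.74 at 18°C and 7.60 at 29°C.

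Within the hypomorph the pair was more abundant at 29°C. PGRP-SC1a stood at 30.7, 38.3 and 41.3 CPM at 18°C and at 57.0, 69.4 and 75.8 CPM at 29°C, and PGRP-SC1b at 29.3, 47.3 and 50.5 CPM against 65.8, 79.2 and 87.0 CPM. Neither overlapped between the temperatures. The value at 18°C over 29°C was -0.87 for PGRP-SC1a (SE 0.15, adjusted p = 0.000349) and -0.85 for PGRP-SC1b (SE 0.21, adjusted p = 0.00493). Of the counts of the pair, PGRP-SC1a took 51.1%, 44.8% and 45.0% in the hypomorph libraries at 18°C and 46.4%, 46.7% and 46.5% at 29°C, so the share varied little beside the level. No fold is given for WT flies between temperatures, since they were at or near the floor.

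PGRP-SC2 did not share this pattern. It had 2, 3 and 6 counts in WT and 2, 10 and 6 counts in hypomorph flies at 18°C, and 38, 121 and 17 counts in WT and 15, 61 and 8 counts in hypomorph flies at 29°C. Replicate 2 was the highest library of each group at 29°C, and the strains overlapped at both temperatures. In CPM the WT levels were 0.439, 0.548 and 0.874 at 18°C and 5.95, 16.6 and 2.05 at 29°C, and the hypomorph levels were 0.390, 1.24 and 0.737 at 18°C and 2.01, 7.09 and 1.11 at 29°C. PGRP-SC2 was lower at 18°C than at 29°C in WT flies by 3.62 on the log2 scale, or -3.62 as 18°C over 29°C (SE 0.86). This value was -2.56 without WT replicate 2 at 29°C. The hypomorph value was -2.04 (SE 0.84) and was not called. It was -0.90 without hypomorph replicate 2 at 29°C and -2.45 without hypomorph replicate 3 at 29°C. Leaving out hypomorph replicate 3, WT replicate 2 or WT replicate 3 at 29°C brought it past the threshold. The gene passed the filter only through libraries at 29°C, so its temperature values are given as a description and no p-value is printed for them. The strain difference was 0.36 at 18°C (95% interval -2.11 to 2.83) and -1.22 at 29°C (adjusted p = 0.214), the latter -2.37 (adjusted p = 0.0307) without hypomorph replicate 2 at 29°C.

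The libraries with most PGRP-SC2, replicate 2 of each strain at 29°C, were those with most gut marker reads. Among the others the order differed. The unnumbered WT library at 29°C had 5.95 CPM of PGRP-SC2 with 45.2 CPM of gut markers, and hypomorph replicate 3 at 29°C had 1.11 CPM with 74.5 CPM. Summed gut markers stood at 45.2, 1802 and 16.9 CPM in WT flies at 29°C and at 74.0, 859.6 and 74.5 CPM in hypomorph flies at 29°C, in the order in which the PGRP-SC2 values are given, and at 4.85 to 36.3 CPM in the 6 libraries at 18°C. The WT library with 1802 CPM of gut markers had 8 counts of PGRP-SC1b and 2 of PGRP-SC1a, and the hypomorph library with 4.85 CPM had 380 and 308. The part of gut RNA in the levels of these genes was not tested. With both replicate 2 libraries at 29°C left out, a choice made after seeing the data, PGRP-SC2 between temperatures was at -2.56 in WT flies and -0.90 in hypomorph flies. The strain values of PGRP-SC1a and PGRP-SC1b at 29°C were then 9.58 and 7.73.

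**Figure D3:**
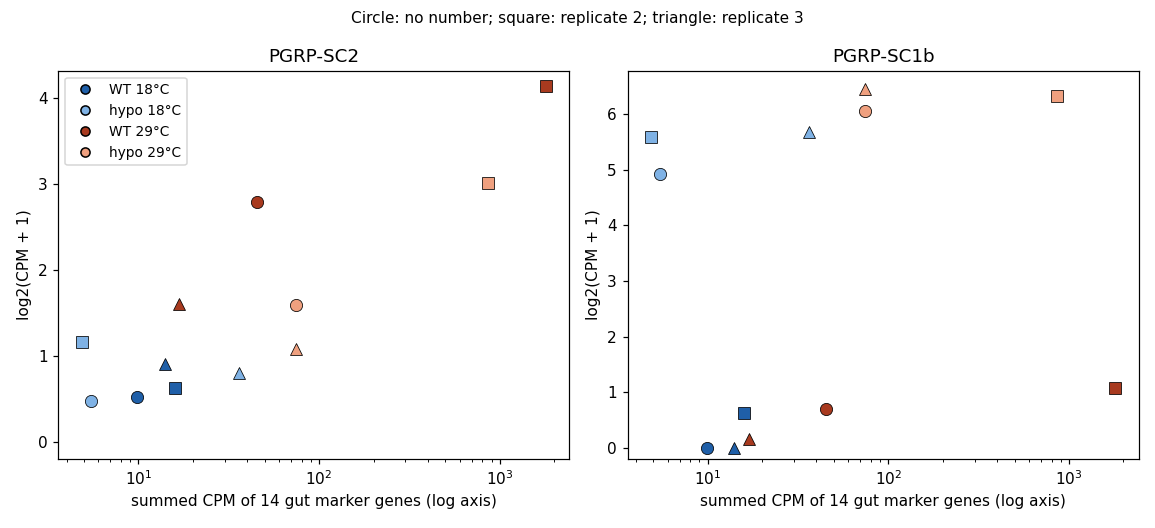
Log2(CPM + 1) of PGRP-SC2 and of PGRP-SC1b (vertical axes) against the summed CPM of 14 gut markers (horizontal axis, logarithmic) in the 12 libraries, marked by strain and temperature. PGRP-SC2 is highest in the libraries with 1802 and 859.6 CPM of gut markers, and PGRP-SC1b is higher in every hypomorph library than in any WT library. The part of gut RNA was not tested.

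The genes next to the cluster were looked up after the values of the PGRP genes were seen. In the Release 6 order, CG14743 lies between PGRP-SC1a and PGRP-SC1b and had at most 1 count in any library. CG14767, past PGRP-SC2, had strain differences of 0.18 at 18°C (adjusted p = 0.0549) and 0.19 at 29°C (adjusted p = 0.0501), and gcl, a germ cell formation gene, had 0.05 and 0.08 and was not called.

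Of the other PGRP genes in the table, PGRP-LA and PGRP-LD were called in no comparison, and PGRP-SB2 had 1 count in 1 hypomorph library at 29°C. PGRP-LD had group means of 41.2 ± 3.5 and 46.0 ± 4.2 CPM at 18°C and 39.0 ± 2.7 and 41.2 ± 3.2 CPM at 29°C in WT and hypomorph flies (SD, n = 3).

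Other genes of the Toll and Imd pathways and antimicrobial effector genes were followed through lists of genes. Of 20 Toll pathway genes, 8 fell (40%, against 10.2% of all genes) and 0 rose in the hypomorph at 29°C (median -0.13). At 18°C 7 fell (35%, against 14.6% of all genes) and 0 rose (median -0.25). At 29°C, 5 fell without WT replicate 2 or hypomorph replicate 3. At 29°C the smallest adjusted p-values belonged to spz, the Toll ligand (-1.11, adjusted p = 2.52e-05), spirit, a protease of the same cascade (-1.21, 5.52e-05) and SPE, the protease that activates spz (-0.45, 6.15e-05). At 18°C they belonged to spz (-0.89, adjusted p = 0.000104), grass, a protease of the cascade below PGRP-SA (-0.57, 0.000113), and SPE (-0.41, 0.000114). These genes, like PGRP-SA, act outside the cell upstream of the receptor Toll.

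Imd pathway genes were split. Of 18 tested, 3 rose and 3 fell at 29°C (33.3% called, against 19.0% of all genes, median 0.04). At 18°C 5 rose and 2 fell (38.9% called, against 26.2% of all genes, median 0.11). Without a single library, 1 to 4 rose and 1 to 3 fell at 29°C, and 1 to 5 rose and 1 to 3 fell at 18°C. The ubiquitin-conjugating enzyme gene ben rose by 0.49 at 29°C (adjusted p = 3.52e-05) and by 0.33 at 18°C (0.00116). The genes pirk, an inhibitor that acts on PGRP-LC and is induced by the pathway, Dredd, the caspase that cleaves Relish, and Rel, which encodes Relish, were lower. The log2 fold change of pirk was -1.38 at 29°C (adjusted p = 0.0075) and -1.49 at 18°C (0.0025), that of Dredd was -0.80 at 29°C (0.00482), and that of Rel was -0.34 at 18°C (0.0103). The receptors PGRP-LC and PGRP-LE, beside these, passed the test in 1 and in 0 of the strain comparisons.

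Of 19 antimicrobial effector genes tested, 10 fell (52.6%, against 10.2% of all genes) and 0 rose in the hypomorph at 29°C (median -0.95). At 18°C 8 fell (42.1%, against 14.6% of all genes) and 0 rose (median -0.45). The other 9 at 29°C and 11 at 18°C did not pass the test. Hypomorph replicate 2 at 29°C stood apart from its group: the diptericin gene Dpt was at 126.9 CPM there against 6.18 and 0.694 CPM in the other hypomorph libraries at 29°C, and AttC was at 99.98 CPM against 3.90 and 2.50 CPM. This library also held most gut marker reads of its group, and the part of gut RNA was not tested. Without it all 19 tested effectors fell at 29°C (median -3.94), and without both replicate 2 libraries at 29°C 18 of 19 did. At 18°C, 5 fell without the unnumbered hypomorph library or hypomorph replicate 3. The attacin gene AttA, a classical Imd target, was at -3.58 (adjusted p = 0.000242) at 29°C and -3.46 (0.00193) at 18°C. Drsl5, a drosomycin-like gene, was at -1.26 (adjusted p = 3.10e-06) and -0.55 (0.00383), and IM4, which encodes a peptide induced by infection, at -0.76 (6.54e-06) and -0.50 (0.000266). Drsl5 was the only effector with a called difference of temperature responses (0.71, adjusted p = 0.0455), where 2.32% of all genes had one. Without hypomorph replicate 2 at 29°C, 7 effectors had one.

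Between temperatures, 9 of the 20 Toll pathway genes were higher and 2 lower at 18°C in WT flies, and 9 did not pass the test (55% called, against 33.4% of all genes). Without WT replicate 3 at 18°C or at 29°C, 5 were higher and 1 lower. In the hypomorph 7 were higher and 3 lower (50% called, against 32.2% of all genes). Dif, an NF-kappaB factor of the Toll pathway, was higher at 18°C by 0.48 in WT (adjusted p = 0.000507) and by 0.35 in hypomorph flies (0.00482). In WT flies Tl, the receptor Toll, was at 0.57 (adjusted p = 0.00181) and spirit at -0.79 (0.00159), and in hypomorph flies spz was at 0.72 (0.000947) and GNBP2 at -0.43 (0.0019). Of 18 Imd genes, 2 were higher and 4 lower at 18°C in WT flies, and 4 higher and 3 lower in the hypomorph. The WT share, 33.3%, is that of all genes (33.4%), and the hypomorph share, 38.9%, is near it (32.2%). Diap2, a ubiquitin ligase of the pathway, was lower at 18°C in both (-0.62, adjusted p = 1.61e-05, and -0.66, 8.57e-06). Rel was at 0.43 (adjusted p = 0.00169) and trbd, a deubiquitinase gene, at -0.55 (0.00552) in WT flies, and ben at -0.40 (0.000167) and Tak1, the kinase of the pathway, at 0.44 (0.00234) in the hypomorph.

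Of the 19 effector genes, 5 were higher and 4 lower at 18°C in WT flies (47.4% called, against 33.4% of all genes, median -0.45). In the hypomorph 7 were higher and 0 lower (36.8% called, near the 32.2% of all genes, median 0.19). In WT flies Drsl5 was at 0.75 (adjusted p = 0.000247), IM2 at 0.51 (0.000829) and IM23 at 0.82 (0.000832). In the hypomorph Drsl5 was at 1.47 (adjusted p = 5.80e-07), IM4 at 0.63 (2.63e-05) and IM23 at 1.24 (2.72e-05). The 4 effectors lower at 18°C in WT flies, named here after their values were seen, were Mtk (-1.80, adjusted p = 0.0188), DptB (-2.36, 0.0288), CecA1 (-3.54, 0.0355) and AttA (-1.31, 0.0466). These counts turned on single libraries. In WT flies 0 were lower without the unnumbered library or replicate 3 at 18°C, 1 without WT replicate 2 at either temperature or the unnumbered WT library at 29°C, and 9 without hypomorph replicate 2 at 29°C. In the hypomorph 11 were higher and 0 lower without replicate 2 at 29°C, and 6 higher and 6 lower without replicate 3 at 29°C.

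**Figure D4:**
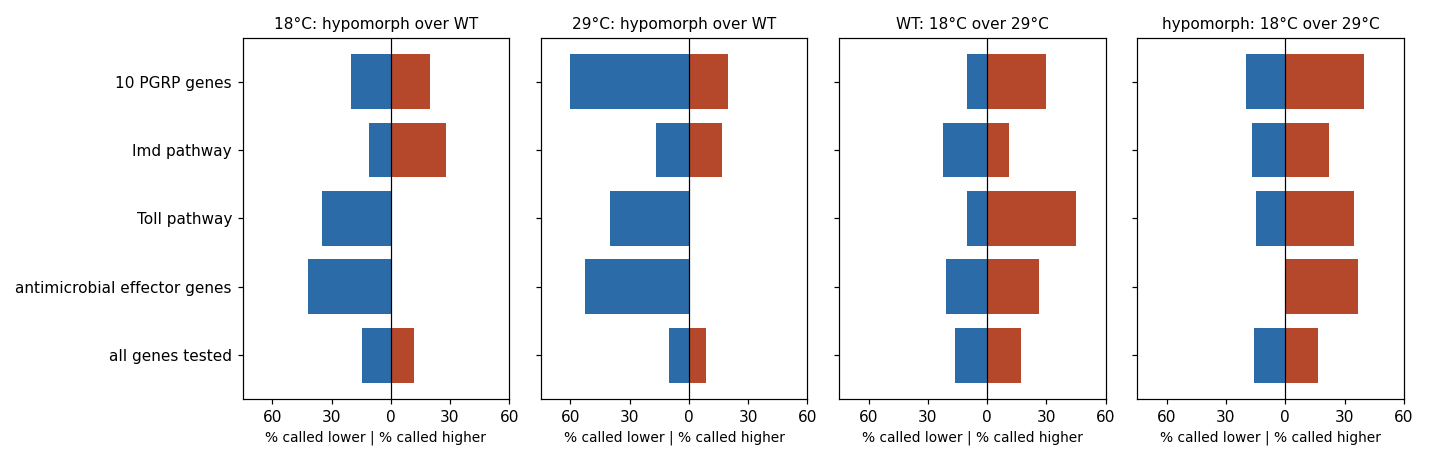
Share of the tested genes of each list called higher (right of 0) or lower (left of 0) in each pairwise comparison (horizontal bars, percent), for the 10 PGRP genes, 18 Imd pathway genes, 20 Toll pathway genes and 19 antimicrobial effector genes, beside all 9553 tested genes. In the hypomorph at 29°C, 60% of the PGRP genes (PGRP-LC included, whose call was lost in 10 of 21 alternatives), 40% of the Toll genes and 52.6% of the effector genes are lower, against 10.2% of all genes.

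Markers of fat body and hemocytes also differed between the groups. In the hypomorph, 8 of 9 fat body markers fell at 18°C (median -1.98), and 4 fell and 1 rose at 29°C (median -0.22). Of 6 hemocyte markers tested 4 fell at 18°C (median -0.59) and 5 at 29°C (median -0.96). Of all genes, 14.6% fell at 18°C, and 10.2% fell and 8.81% rose at 29°C. The fat body sums, most of them reads of yolk protein genes, were further apart between the strains at 18°C than at 29°C, and the hemocyte sums were further apart at 29°C. Among the PGRP genes, a change of the strain difference between temperatures passed the test for PGRP-SD alone. Between temperatures, 8 of 9 fat body markers were higher at 18°C in WT flies (median 1.98), while 1 was higher and 5 were lower in the hypomorph (median -1.22). Of all genes, 17.3% were higher at 18°C in WT flies, and 16.6% were higher and 15.6% lower in the hypomorph. The difference of responses was called for 8 of 9 fat body markers, all lower in the hypomorph (median -1.26, where 1.69% of all genes were lower). It was called for 0 of 6 hemocyte markers (median 0.28), whereas that of PGRP-SD was higher in the hypomorph. Hemocyte markers at 18°C were lower for 3 of 6 in WT flies (16.1% of all genes were), and higher for 2 and lower for 2 in the hypomorph. All 5 photoreceptor markers rose in the hypomorph at each temperature (11.6% of all genes did at 18°C and 8.81% at 29°C). Of 5 neuron markers, 2 rose at 18°C and 1 at 29°C, and of 5 glia markers 3 and 2 rose, with 0 lower. Of 4 muscle markers, 2 fell at 18°C and 3 rose at 29°C. The part of these tissues in the PGRP levels was not tested.

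For each member called in a pairwise comparison, the genes most alike over the 12 libraries were found by Pearson's r of log2(CPM + 1). The libraries share strain and temperature groups, so r describes these libraries only. For PGRP-SA they were spz and Tep2, a thioester protein gene (both r = 0.974). For PGRP-LB they were CG9649 (0.978) and Spase22-23 (0.972), for PGRP-SD Obp18a (0.979) and CG7442 (0.9749), for PGRP-SB1 CG43236 (0.952) and CG8083 (0.943), and for PGRP-LF CG8498 (0.960) and CG1143 (0.945). PGRP-SC1a and PGRP-SC1b were most like each other (0.997), followed by Pdh (0.992) and CG14591 (0.987). PGRP-SC2 was most like CG10472 (0.926) and CG9452 (0.924), and PGRP-LC was most like Irc (0.918) and Tret1-1 (0.916). Among the members, apart from the PGRP-SC1 pair, PGRP-SA was most like PGRP-LB (0.850), PGRP-LF (0.849) and PGRP-SB1 (0.825).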

How the data were processed

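The authors aligned 3' RNA-seq reads to the fly genome (dm3) with TopHat, counted reads per gene with ESAT and deposited 1 table of raw counts. The counts are not normalized. Of its columns, 4 match none of the samples described here and were not used. In each group 1 column carries no replicate number and was used as a replicate without a number. The 10 genes and the gene lists were chosen with earlier results of these data known. All 10 genes were named, with up to 3 called genes of smallest adjusted p per list and comparison, and the 2 most alike genes of each called member. Of the effector and Imd lists, genes with too few reads were not tested.

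Genes were filtered with filterByExpr (minimum count 10), which kept 9553 of the 14611 genes that had any reads. TMM scaling was used, and a quasi-likelihood model of the 4 groups was fitted to all 12 libraries with edgeR 4.0.16 in R 4.3.3. P-values were adjusted by Benjamini-Hochberg over the 9553 genes. SE is the absolute log2 fold change divided by the square root of F. The exact permutation test of 3 against 3 libraries cannot go below p = 0.1 and makes no call here. Total counts were 4679393 to 7003233 (WT, 18°C), 4409119 to 7449096 (hypomorph, 18°C), 6750281 to 8725136 (WT, 29°C) and 7348323 to 8806472 (hypomorph, 29°C). The biological coefficient of variation was 12.9%. On simulated counts of the strain comparison at 18°C over 9553 genes, 200 of 200 genes with a log2 fold change of 1.5 were recovered, with 12 false calls. The changed genes were drawn from well-covered genes only. The recovery therefore says nothing about smaller changes or genes near the floor. No libraries were duplicates (chi-square per degree of freedom 3.2 to 9 within groups).

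Alternatives were DESeq2 1.42.0, DESeq2 size factors, all genes with at least 1 count, at least 10 counts in every library, only the compared groups, PGRP-SC1a and PGRP-SC1b summed, a replicate block, the criterion of the study (log2 fold change over 1 and p under 0.05, taken as unadjusted), leaving out each library and, added after seeing the data, leaving out both replicate 2 libraries at 29°C and, for the pathway lists, each library in turn. The annotation at hand is of another build than dm3, so no coordinates or sequences are printed. Plots used Python 3.11.15 with matplotlib 3.10.9.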

Additional observations from a re-analysis of the deposited data

Results flagged for a closer look

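The temperature response of PGRP-SD differed between the strains by 0.90 on the log2 scale, hypomorph minus WT, by edgeR's quasi-likelihood test of the difference (adjusted p = 0.00713). It was 1.55 in hypomorph flies and 0.64 in WT flies, as 18°C over 29°C, with all 3 hypomorph libraries at 29°C below the other 9 libraries.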

How the results depend on the processing

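Over 21 alternatives, the 46 fold changes of the PGRP genes gave 938 values, of which 890 (94.9%) kept their direction and their side of the threshold. Part of this share was fixed in advance, so it is no measure of robustness. Leaving out a library of neither compared group hardly moves a fold change, and genes that stayed uncalled count as kept. Calls were lost in 13 values: 10 for PGRP-LC at 29°C, and 1 each in the 8 numbered libraries with no replicate block for PGRP-LB in WT flies (0.46, adjusted p = 0.0848), PGRP-SB1 in hypomorph flies (0.85, adjusted p = 0.0559) and the PGRP-SD difference (0.97, adjusted p = 0.058). Calls were gained in 23. The sign changed in 12, none of them called by edgeR. Whether replicate numbers pair the libraries was not settled, with only 2 pairs per comparison. The correlation of deviations for same-numbered libraries was 0.245 and 0.234 between the strains at 29°C. It was -0.0668 to 0.0693 in the other pairwise comparisons. With and without the replicate block in the 8 numbered libraries, PGRP-LF in WT flies between temperatures was -0.08 and -0.08, and the PGRP-SA difference was -0.05 and -0.05. The remaining sign changes left out 1 library: PGRP-LB between temperatures in hypomorph flies (-0.02 without hypomorph replicate 2 at 18°C, -0.0011 without hypomorph replicate 3 at 29°C, up to 0.17), PGRP-SC2 between strains at 18°C (-0.11 without hypomorph replicate 2, up to 0.72), PGRP-SD between strains at 18°C (-0.11 without WT replicate 3, -0.01 without hypomorph replicate 2, up to 0.14), the PGRP-SA difference (-0.02 without hypomorph replicate 3 at 18°C, -0.06 without the unnumbered hypomorph library at 29°C, up to 0.19) and the PGRP-LE difference (-0.01 without hypomorph replicate 3 at 18°C, up to 0.32).

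With the criterion of the study, 1 gene was called in WT flies and 2 in hypomorph flies between temperatures, and 3 between strains at 29°C, since it asks for a log2 fold change over 1. The 3 genes between strains include PGRP-SC1a and PGRP-SC1b. The calls between temperatures include PGRP-SC2 in each strain, a gene that passed the filter only through libraries at 29°C. For the difference of responses, 2 genes were called with no filter, with the stricter filter (10 counts per library) and without both replicate 2 libraries at 29°C, and 0 in the 8 numbered libraries with no replicate block. Leaving out 1 library gave 1 to 2. The stricter filter tested 7 of the 10 genes, since PGRP-SC1a, PGRP-SC1b and PGRP-SC2 had libraries below it. Low WT counts limit the precision of the PGRP-SC1a and PGRP-SC1b ratios and of PGRP-SC2 at 18°C.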
